A study of Mus musculus with 8 samples.

Results

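The translation initiation factors examined here were the genes whose symbol begins with Eif and a digit from 1 to 6, without the kinases of the Eif2ak family and without symbols that mark a pseudogene. The count table listed 51 such genes among 28239, and 49 of them reached at least 2 CPM (counts scaled to a common library size) in at least 4 of the 8 libraries. Naive CD4+ T cells had been taken by negative selection from spleens of 4 WT and 4 Alox15-/- mice, all labelled C57BL/6, and every culture had received IL-2, TGF-β and beads against CD3 and CD28 for 2 days to drive regulatory T cells (Tregs). The deletion is carried by the whole animal rather than by T cells alone. The labels give 4 mice and 4 libraries a group without tying each library to 1 mouse, and the p-values measure the spread between these libraries. Mice across the experiments were 10 to 12 weeks old and of both sexes, and the labels do not give the sex of these 8. RNA was counted by MACE-seq, which reads tags near the 3′ ends of mRNAs, so levels are compared below between libraries and not between genes.

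Initiation is the step of protein synthesis at which the ribosome finds the start codon. eIF2 carries the initiator tRNA to the small ribosomal subunit and is recharged with GTP by eIF2B. eIF3 holds the pre-initiation complex together, and the eIF4 proteins bind the cap of the mRNA and unwind its leader. eIF1, eIF1A and eIF5 govern recognition of the start codon, and eIF5B joins the large subunit. Naive T cells are known to keep many mRNAs of this machinery untranslated and to engage them quickly upon activation.

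The targeted gene was counted more often in the libraries labelled as lacking it. Alox15, encoded on chr11:70344152-70352031 (GRCm38), lay at 63.7 to 70.5 CPM in the libraries labelled Alox15-/- and at 1.88 to 9.02 CPM in the WT libraries, a log2 fold change of 3.65 (edgeR adjusted p = 1.08e-05). Whether the counted 3′ tags lie inside the deleted part is not given in the sources used here, so this level does not check the labels. Directions below refer to the libraries labelled Alox15-/- against those labelled WT. The summed T cell markers (Cd3e, Cd3d, Cd3g, Cd4, Lck) ranged over 1511 to 1759 CPM and 1671 to 1732 CPM in the respective groups, and the Treg markers (Foxp3, Il2ra, Ctla4, Ikzf2) over 1360 to 1518 CPM and 1370 to 1620 CPM. Within the T cell sum, Cd4 was lower without overlap, at 209.8 to 296.9 CPM against 327.9 to 351.9 CPM in WT. Cd3g was higher without overlap, at 152.1 to 169.8 CPM against 111.0 to 139.7 CPM in WT. The groups overlapped for Cd3e, Cd3d and Lck. No gene of either list passed the threshold, and Foxp3 alone ranged over 71.7 to 113.5 CPM and 93.4 to 195.4 CPM. All 5 erythroid markers, 5 of 6 myeloid markers and all 4 markers of mast cells and basophils were higher in the libraries labelled Alox15-/- and passed it. Their summed levels ranged over 905.4 to 3484, 42.7 to 317.3 and 93.9 to 270.9 CPM there, and over 32.5 to 121.9, 8.67 to 13.9 and 25.7 to 44.3 CPM in WT. Of 5 markers of NK and γδ T cells, only the γδ T cell genes Trdc and Tcrg-C4 reached the minimum, and both were also higher and called. The NK cell genes Ncr1, Klrb1c and Klre1 had 0 to 6, 1 to 13 and 2 to 14 reads per library and were not tested. The summed B cell markers lay at 5.31 to 7.33 against 7.68 to 18.1 CPM in WT, with overlap for Cd79a and Cd79b, and the CD8 T cell markers at 12.1 to 21.9 against 21.5 to 31.8 CPM. Of these lists only the B cell gene Ms4a1 was called, at 0.144 to 0.814 CPM against 2.51 to 4.20 CPM in WT. The part of these cells in the results on initiation factors was not tested. With the hemoglobin genes removed from the counts, 0 members were called and their median log2 fold change was -0.061, the value also found with them. That step leaves any initiation factor mRNA of such cells in the counts, so it cannot show their part. In a bulk library fewer cells of a type and less RNA per cell cannot be told apart. Total counts ran from 3723151 to 9538962 per library.

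No initiation factor differed between the groups after adjustment. edgeR called 0 of 49 at an adjusted p under 0.05, where 1.24% of all 12700 genes tested were called (158 genes). DESeq2 and limma-voom also called 0. At an unadjusted p under 0.05 the count was 3 of 49 (6.12%), against 7.84% of all genes. The groups overlapped for every one of the 49 genes, whereas 5.25% of all genes tested had groups that did not overlap. The smallest adjusted p among the members was 0.525.

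The estimates were narrow. Log2 fold changes ran from -0.41 to 0.46, and 47 of 49 lay within 0.25 of 0, beside 10026 of all 12700 genes tested. The 95% confidence interval lay within 0.5 of 0 on the log2 scale for 47 of 49 members (95.9%), and for 54.9% of all genes tested. The exceptions were Eif5a2 and Eif4e3. The median standard error was 0.104 over the members and 0.156 over all genes, and the median SD of log2 CPM within a group was 0.124 and 0.215. For the SD over all genes a small constant was added to CPM, which was not done for the members. Widths and SDs depend on read counts, and the members were not matched to other genes by count. Taken 1 at a time, every member's interval ended short of a doubling or a halving.

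Most of the small differences pointed the same way. The log2 fold change was negative for 36 members and positive for 13, with a median of -0.061 beside -0.007 over all genes tested, of which 51.8% were negative. With upper quartile scaling 30 members were negative and the median was -0.033 beside 0.021. Members are not independent replicates of the comparison, since they were measured in the same 8 libraries.

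**Figure D1:**
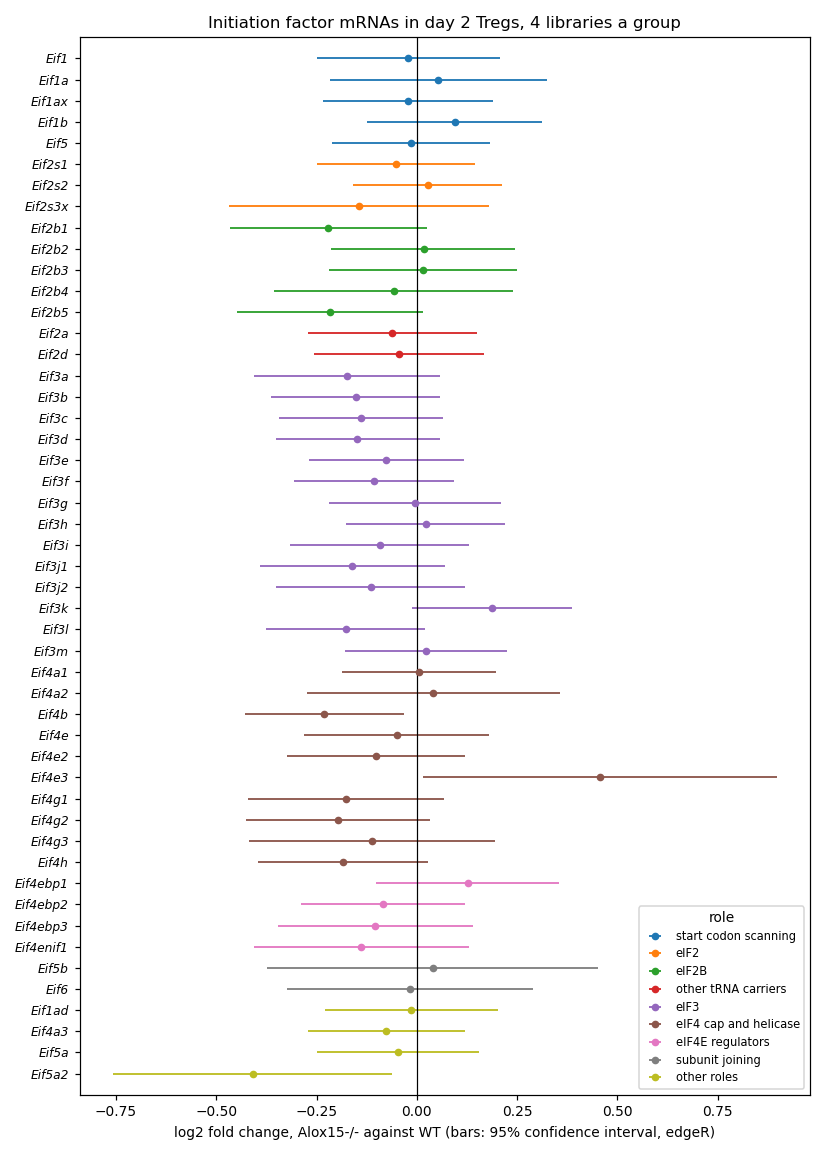
Log2 fold change of each of the 49 initiation factors, libraries labelled Alox15-/- against WT (x axis), with the 95% confidence interval from edgeR as bars and the role as colour, 4 libraries a group. Of the 49 estimates, 47 lie within 0.25 of 0 (10026 of all 12700 genes tested), and Eif5a2 at -0.41 and Eif4e3 at 0.46 lie outside.

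As a share of all counts, the 49 genes together took 1.21% to 1.27% in the libraries labelled Alox15-/- and 1.28% to 1.35% in WT, with no overlap. After scaling by TMM the summed CPM was 12516 ± 472 (SD, n = 4) against 13145 ± 407 (SD, n = 4), with ranges of 12087 to 13161 and 12617 to 13602 that overlapped. High and low values were spread unevenly over the libraries. WT replicate 4 held the highest value of 15 members and the lowest of 2, Alox15-/- replicate 4 the lowest of 11 and the highest of 2, and WT replicate 3 the lowest of 10 and the highest of 9.

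**Figure D2:**
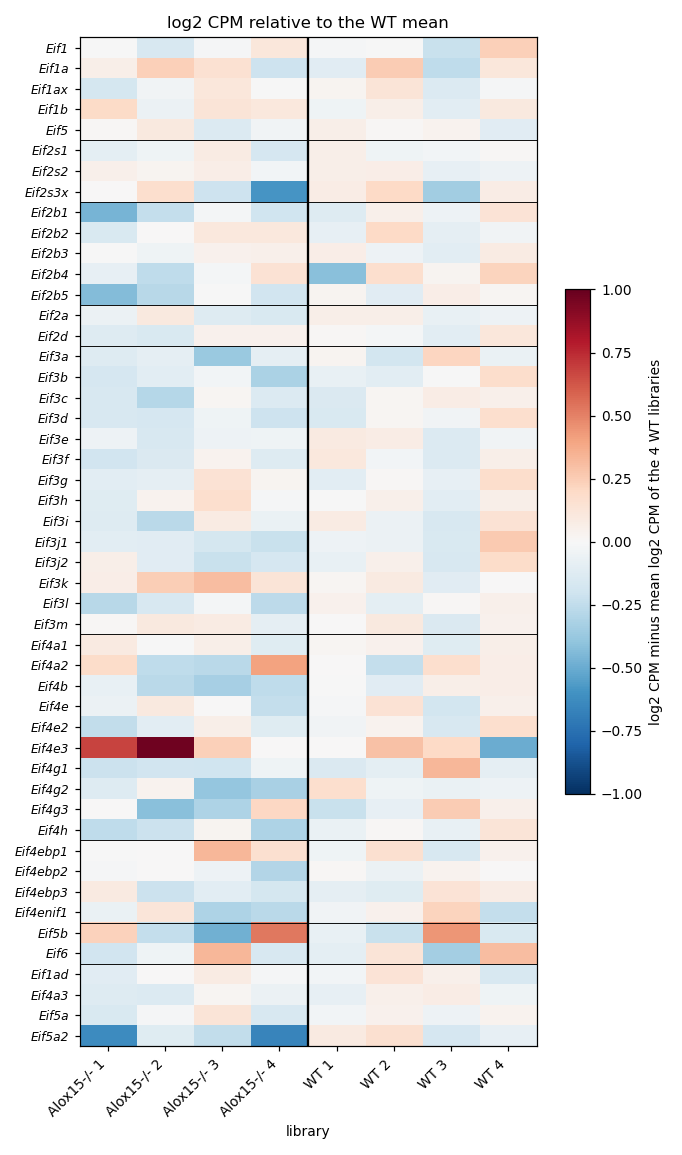
Log2 CPM of each member (rows, grouped by role) in each library (columns), minus the mean log2 CPM of the 4 WT libraries, with red above and blue below that mean. Pale colours fill most of the map, and the strongest departures belong to Eif4e3, Eif5a2, Eif5b and Eif2s3x, where libraries of the same group differ from each other.

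Start sites are shown because many mRNAs of the translation machinery begin with a run of pyrimidines through which mTOR signalling regulates their translation. The runs come from RefSeq (GRCm38.p6), 10 bases before the annotated start and 20 from it, on the strand of the gene. Capitals mark a C followed by at least 6 further C or T that begins within 10 bases of the start.
Eif3f (chr7:108934405-108934434, plus strand): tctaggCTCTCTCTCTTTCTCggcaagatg
Eif2s3x (chrX:94212632-94212661, minus strand): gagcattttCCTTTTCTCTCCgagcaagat
Eif2s3y (chrY:1010585-1010614, plus strand): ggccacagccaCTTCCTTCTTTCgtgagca
Eif2b5 (chr16:20498807-20498836, plus strand): CTCTTTCTCTCCCTgcaactacaccttcgc
Eif4b (chr15:102073763-102073792, plus strand): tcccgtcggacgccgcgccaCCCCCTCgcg
Such a run was found on the transcribed strand in 8 of the 38 members with a start in the table (21.1%) and in 15.4% of the 8629 tested genes that had one. In Eif3f and Eif2s3x (5.26% of the 38) it could be read from the first transcribed base itself, as in 114 (1.32%) of the 8629 tested genes. The 8 genes were Eif2b2, Eif2b5, Eif2s3x, Eif3f, Eif3l, Eif4b, Eif4e and Eif4enif1. A gene was included if any of its annotated starts had the run, and Eif4e and Eif4enif1 also have a start without it. Their median log2 fold change was -0.142, against -0.055 for the members without the run, and the corresponding medians over all tested genes were -0.013 and -0.020. None of the 8 passed the threshold. A match is a description of letters and not of a regulated site.

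The 5 genes of start codon scanning had log2 fold changes between -0.02 and 0.10. Eif1, whose product keeps the ribosome from accepting a wrong start codon, was counted at 472.9, 425.0, 470.1 and 514.9 CPM in the libraries labelled Alox15-/- and at 471.9, 474.9, 406.6 and 559.1 CPM in WT. WT held both the lowest and the highest library, and the log2 fold change was -0.02 (SE 0.107, edgeR adjusted p = 0.981). Eif5, the GTPase-activating partner of eIF2, lay at 214.6, 227.7, 193.7 and 207.7 CPM against 221.9, 214.8, 217.7 and 197.1 CPM. Its groups covered almost the same range, with a log2 fold change of -0.01 (SE 0.0925, edgeR adjusted p = 0.988). The other genes of this role, Eif1b, Eif1a and Eif1ax, had log2 fold changes of 0.10, 0.05 and -0.02. Over the 5 genes the median was -0.014, and with upper quartile scaling all 5 values were positive. Eif1b was counted at 0.129 to 0.148 times Eif1 in the libraries labelled Alox15-/- and at 0.117 to 0.140 times in WT, ranges that overlapped.

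Of the eIF2 subunits, the α subunit gene Eif2s1 carries the serine that stress kinases phosphorylate. Its level was 164.6, 171.0, 185.7 and 156.8 CPM in the libraries labelled Alox15-/- and 183.1, 170.3, 172.7 and 177.3 CPM in WT, and the WT values lay within the range of the other group. The log2 fold change was -0.05 (SE 0.0922, edgeR adjusted p = 0.931). Eif2s2, which encodes the β subunit, varied least within groups of all 49 members, with an SD of 0.0605 on the log2 scale, and its log2 fold change was 0.03. The γ subunit, which binds the initiator tRNA, is encoded on both sex chromosomes. The X copy Eif2s3x was counted at 225.9, 253.0, 194.6 and 149.0 CPM against 236.6, 258.0, 176.6 and 236.7 CPM. One library in each group was well below the rest of its group, Alox15-/- replicate 4 and WT replicate 3, and the log2 fold change was -0.14 (SE 0.152, edgeR adjusted p = 0.871). Without WT replicate 3 the difference was -0.24, and without Alox15-/- replicate 4 it was -0.015.

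The Y copy Eif2s3y was nearly absent from the counts. It had 2 reads in all 8 libraries together and at most 1 in any library, and it was at 0 in 6 libraries. There a count of 0 allows up to 3 reads, or 0.431 to 0.806 CPM by library, for counting error only. Other Y-linked genes were not all so low. Kdm5d had 0 to 3 reads per library and Uty 4 to 18, while Ddx3y, a helicase of the same scanning step, had 170 to 406 reads and Xist 172 to 554 reads in every library. The log2 fold change of Ddx3y was 0.08. The other member under the minimum, Eif2c5, is annotated as a long intergenic noncoding RNA on the X chromosome and also had 2 reads in all.

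eIF2B is the exchange factor that reloads eIF2. Its regulatory subunit gene Eif2b1 averaged 52.5 ± 6.52 CPM against 61.4 ± 4.97 CPM in WT (SD, n = 4), and the catalytic subunit gene Eif2b5 at 72.8 ± 9.01 and 84.8 ± 4.46 CPM. Their log2 fold changes of -0.22 and -0.22 did not pass the threshold (edgeR adjusted p = 0.696 and 0.683), and the groups overlapped. The remaining subunit genes Eif2b2, Eif2b3 and Eif2b4 had values of 0.02, 0.02 and -0.06. Eif2a and Eif2d, which encode proteins able to deliver tRNA without eIF2, had log2 fold changes of -0.06 and -0.04.

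eIF3 is the largest initiation factor, and 14 of its genes were analysed. Of these 11 had a negative log2 fold change, or 10 with upper quartile scaling, and the median was -0.110. None was called. The lowest was Eif3l at -0.18 (edgeR adjusted p = 0.698), with means of 368.6 ± 31.1 and 416.9 ± 19.3 CPM (SD, n = 4). The core subunit genes Eif3a, Eif3b and Eif3c stood at -0.17, -0.15 and -0.14, and Eif3d, whose product can bind caps itself, at -0.15. Eif3e, Eif3f, Eif3i and Eif3g had values of -0.08, -0.11, -0.09 and -0.005. Eif3h and Eif3m were at 0.02 and 0.02. Eif3k was the exception in size, at 332.9 ± 25.4 against 292.3 ± 17.3 CPM (SD, n = 4), a log2 fold change of 0.19 (SE 0.0938, edgeR adjusted p = 0.681). Eif3k and Eif3l encode a pair of neighbouring peripheral subunits, and their differences had opposite signs. The summed CPM of the 14 genes ranged over 4327 to 4856 in the libraries labelled Alox15-/- and 4551 to 4996 in WT, which overlapped.

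The cap-binding and helicase group held 2 of the 3 members with an unadjusted p under 0.05. Eif4b encodes the cofactor that stimulates the eIF4A helicase. It was counted at 405.3, 354.5, 339.7 and 357.9 CPM in the libraries labelled Alox15-/- and at 425.2, 395.0, 443.7 and 446.8 CPM in WT. Only Alox15-/- replicate 1 reached into the WT range, above WT replicate 2. This gave a log2 fold change of -0.23 (SE 0.0929), with an unadjusted p of 0.0249 and an edgeR adjusted p of 0.526. Leaving out 1 library at a time moved the value between -0.29 and -0.19.

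Eif4e3, a divergent relative of the cap-binding protein, was the member with the highest estimate. Its levels were 36.9, 45.3, 27.2 and 23.2 CPM in the libraries labelled Alox15-/- and 23.2, 28.4, 26.6 and 16.4 CPM in WT. Replicates 1 and 2 of the first group were above all others, and its replicates 3 and 4 lay within the WT range. Its log2 fold change was 0.46 (SE 0.207), with an unadjusted p of 0.0437 and an edgeR adjusted p of 0.621. Without 1 library at a time the estimate ran from 0.28 to 0.61. Eif4e3 had the largest spread within groups of the 49 members, an SD of 0.396 on the log2 scale, and overlaps another listed gene, Gm20696, on the same strand.

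Eif4e, which encodes the cap-binding subunit itself, was at 102.6, 114.5, 107.6 and 90.8 CPM against 106.1, 118.5, 94.5 and 110.8 CPM. The ranges nearly coincided, with a log2 fold change of -0.05 (SE 0.108, edgeR adjusted p = 0.946). The scaffold gene Eif4g1 was at 169.0, 171.3, 170.6 and 189.9 CPM against 177.0, 183.5, 246.3 and 184.3 CPM. WT replicate 3 was far above the other libraries. A log2 fold change of -0.18 (SE 0.114, edgeR adjusted p = 0.773) became -0.05 without that library. The related scaffold genes Eif4g2 and Eif4g3 had values of -0.20 and -0.11, and the helicase cofactor Eif4h -0.18. Eif4e2 and Eif4a2 were at -0.10 and 0.04.

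**Figure D3:**
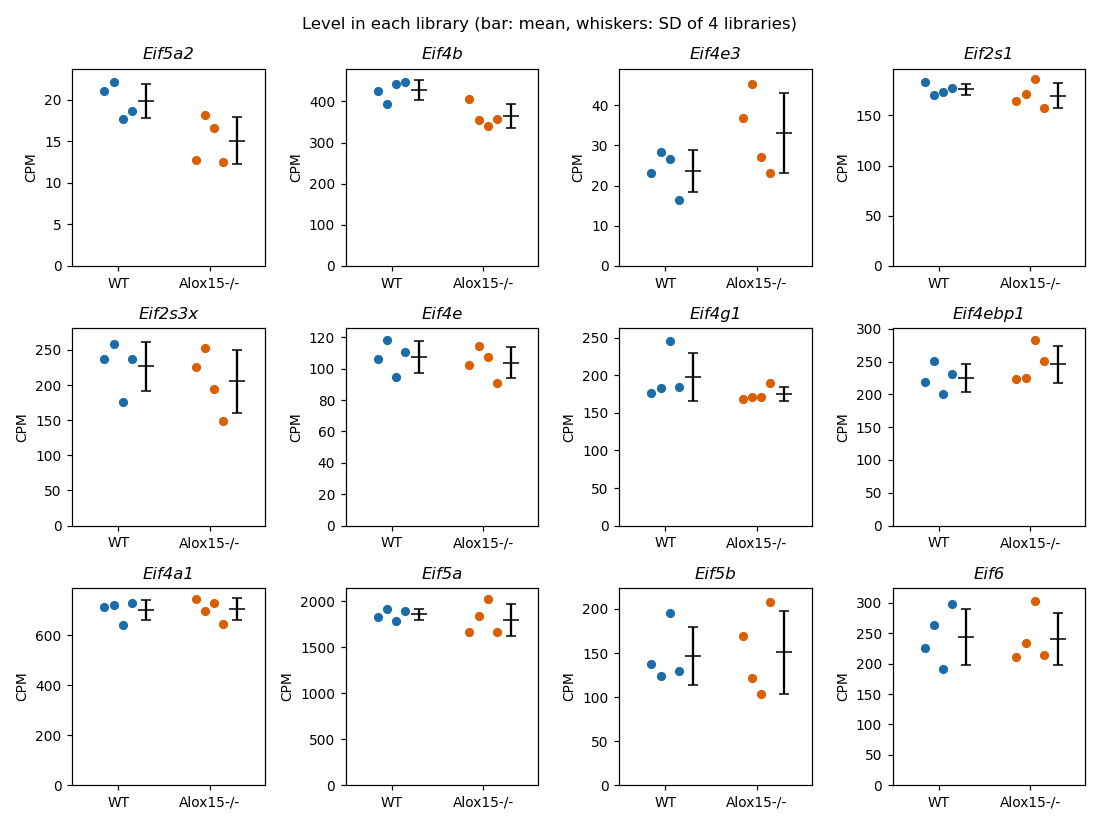
CPM after TMM scaling (y axes, from 0) of 12 members in each library, WT in blue and libraries labelled Alox15-/- in orange, with the mean as a bar and the SD of 4 libraries as whiskers. The groups overlap in every panel, most narrowly for Eif5a2 and Eif4b.

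Added together, the 10 genes of this group gave 2886, 2885, 2741 and 2661 CPM in the libraries labelled Alox15-/- and 3097, 2993, 2981 and 3100 CPM in WT. The sums did not overlap, whereas those of the other 8 roles did. The means were 2793 ± 111.5 and 3043 ± 64.7 CPM (SD, n = 4). The order was the same on the share of all counts, at 0.264% to 0.292% against 0.296% to 0.310%, and with scaling by median of ratios or by upper quartile. Highly counted members such as Eif4g2, Eif4a1, Eif4b and Eif4h dominate this sum, which is given as a description without a test. For each of the 10 genes alone the groups overlapped. The scalings all use the same counts, and the sums by role were chosen after seeing the data. How often sums over other sets of genes separate the groups was not examined.

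The regulators of eIF4E were at similar levels in the groups. Eif4ebp1, whose product blocks eIF4E until mTOR phosphorylates it, was at 224.0, 225.0, 282.5 and 251.2 CPM against 218.1, 250.8, 200.7 and 231.7 CPM. Its highest library was Alox15-/- replicate 3, and the log2 fold change was 0.13 (SE 0.107, edgeR adjusted p = 0.837), or 0.06 without that library. The ratio of Eif4ebp1 to Eif4e counts was 1.96 to 2.77 in the libraries labelled Alox15-/- and 2.05 to 2.12 in WT. The 4 WT libraries thus agreed closely with each other inside the wider range of the other group. Eif4ebp2, Eif4ebp3 and the transporter gene Eif4enif1 had log2 fold changes of -0.08, -0.10 and -0.14.

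The factors of subunit joining varied more between libraries than between groups. Eif5b, the GTPase of subunit joining, was counted at 169.5, 122.1, 103.6 and 208.2 CPM in the libraries labelled Alox15-/- and at 137.2, 123.8, 195.8 and 130.1 CPM in WT. Alox15-/- replicates 1 and 4 and WT replicate 3 were high, and the log2 fold change was 0.04 (SE 0.194, edgeR adjusted p = 0.980). Eif4a2 had its highest values, 90.0, 104.6 and 89.2 CPM, in those same 3 libraries. Eif6, which keeps the large subunit from joining too early, was at 210.7, 234.2, 303.7 and 214.9 CPM against 225.1, 263.0, 190.7 and 297.6 CPM. Its highest libraries were Alox15-/- replicate 3 and WT replicate 4, where Eif5b was at 103.6 and 130.1 CPM. For Eif6 the log2 fold change was -0.02 (SE 0.144, edgeR adjusted p = 0.991).

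Eif5a and its paralog Eif5a2 encode proteins that carry hypusine and help ribosomes past difficult stretches, at the start and later. Eif5a2 was the member with the lowest estimate. Its levels were 12.8, 18.2, 16.6 and 12.5 CPM in the libraries labelled Alox15-/- and 21.01, 22.1, 17.7 and 18.7 CPM in WT. Only Alox15-/- replicate 2 exceeded a WT library, replicate 3. Eif5a2 had a log2 fold change of -0.41 (SE 0.164), with an unadjusted p of 0.0244 and an edgeR adjusted p of 0.525, and it ran from -0.50 to -0.32 when 1 library at a time was left out. Relative to Eif5a in the same library, Eif5a2 counts were 0.00754 to 0.0099 in the libraries labelled Alox15-/- and 0.00985 to 0.0115 in WT, which overlapped at their edges. The remaining members, Eif4a3 of the exon junction complex and Eif1ad, had values of -0.08 and -0.01.

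A deletion kept by breeding can carry neighbouring DNA with it, so genes close to Alox15 were looked at separately. Within 20 Mb on chromosome 11, 22 of 419 tested genes were called (5.25%), and 3 of 53 within 1 Mb (5.66%), beside 1.24% of all genes tested. Whether neighbouring DNA or the other cell types noted above account for these calls was not tested. The 2 members in the window were not among the called genes. Eif4a1, the main helicase of the cap complex, lies at -0.678 Mb from Alox15, on the side of lower coordinates, at chr11:69666936-69672423 and was at 743.0, 696.4, 729.4 and 645.1 CPM against 711.3, 721.2, 642.0 and 728.4 CPM. The groups coincided, with a log2 fold change of 0.006 (SE 0.0904, edgeR adjusted p = 0.997). Eif5a lies at -0.429 Mb, at chr11:69916714-69921958 and was at 1666, 1837, 2024 and 1660 CPM against 1823, 1917, 1790 and 1897 CPM. The WT values sat inside the wider range of the other group, and the log2 fold change was -0.05 (SE 0.0947, edgeR adjusted p = 0.942). The members as a whole were spread over 17 chromosomes.

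**Figure D4:**
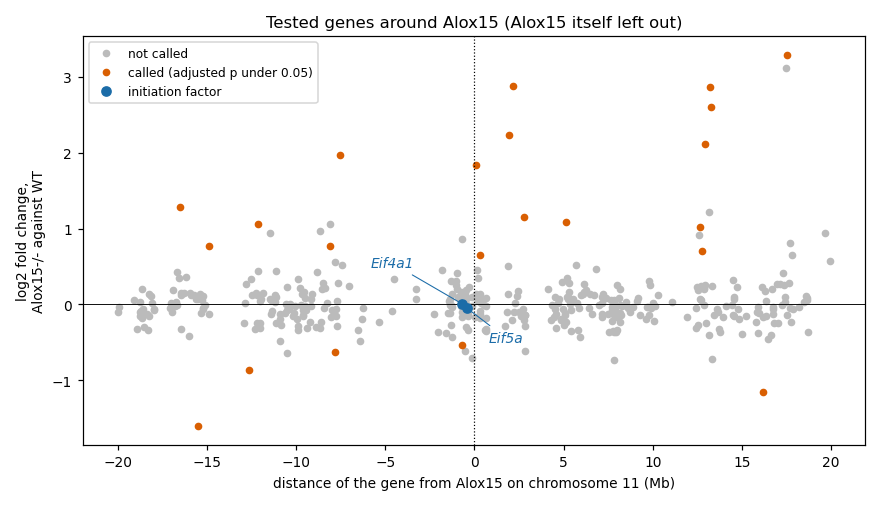
Log2 fold change (y axis) of the 419 tested genes within 20 Mb of Alox15 against their distance from it on chromosome 11 (x axis, Mb), with Alox15 itself left out, called genes in orange and initiation factors in blue. The points of Eif4a1 and Eif5a lie at 0.006 and -0.05, near the 0 line, while 22 genes in the window (5.25%, beside 1.24% of all genes tested) were called.

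Several members share sequence near their 3′ ends with other listed genes, so their counts may be divided. Over the last 800 bases of their transcripts, 6 members matched a listed processed pseudogene at 95% identity or more. Among these pseudogenes Gm7658 held the most reads relative to the member. Eif3m matched it at 98.5% over 735 bases. The pseudogene was credited with 0.881 to 1.19 times as many reads as Eif3m itself in each library. Adding its counts moved the log2 fold change of Eif3m from 0.02 to -0.02. Eif3e matched Eif3s6-ps1, which held counts equal to 40.0% of its own, Eif3c matched Gm11224 with 24.7%, Eif4a3 matched Gm5576 with 17.2%, and Eif4a1 matched Eif4a-ps4, at 100% identity over 260 bases, with 12.2%. With these copies added, none of the members was called. Eif3j1 and Eif3j2 are alike at 99.9% over 800 bases, and the ratio of Eif3j2 to Eif3j1 counts was 0.688 to 0.793 in the libraries labelled Alox15-/- and 0.672 to 0.765 in WT. Eif1 and Emd match at 98.3% over 237 bases. In addition 12 members overlap a listed gene on the opposite strand, as Eif5b does with Rev1 and Eif2a with Serp1. The strand setting of the counting is not given in the sources used here, so reads of such pairs cannot be told apart.

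Genes that act with the initiation factors were not called either. Of 54 such genes 51 were tested, and edgeR called 0 (1.24% of all genes), while 5 (9.80%) had an unadjusted p under 0.05 (7.84% of all genes). DESeq2 and limma-voom called 0 as well. The log2 fold change was negative for 39 and positive for 12, with a median of -0.093, beside 51.8% negative and a median of -0.007 over all genes. The group of elongation and termination factors had a negative value for 9 of 9 genes, with a median of -0.089. Eef2, the translocase of elongation, was at 3923, 3807, 4672 and 3763 CPM in the libraries labelled Alox15-/- and 4845, 4341, 4566 and 5555 CPM in WT. Alox15-/- replicate 3 lay among the WT libraries, and the log2 fold change was -0.26 (SE 0.109, edgeR adjusted p = 0.574).

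Pabpc1, the poly(A)-binding protein that links the mRNA tail to eIF4G, had 1765, 1748, 1638 and 1623 CPM against 2008, 1959, 1914 and 2204 CPM. All 4 libraries labelled Alox15-/- were below all 4 WT libraries, with a log2 fold change of -0.26 (SE 0.090, edgeR adjusted p = 0.387). It was 1 of 6 partners (11.8%) whose groups did not overlap, where 5.25% of all tested genes had such groups. The others were Pabpc4, Ddx3x, Bzw2, Eif2ak3 and Mcts1, of which only Mcts1 had a positive value, 0.14. Besides Pabpc1 and Eef2, the partners with an unadjusted p under 0.05 were Larp1, a binder of mRNAs that begin with a pyrimidine run, at -0.32 (edgeR adjusted p = 0.458), the kinase genes Rps6ka1 at -0.24 (edgeR adjusted p = 0.616) and Eif2ak3 at -0.35 (edgeR adjusted p = 0.637).

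The mRNAs of the stress response downstream of eIF2 were not called. Atf4, whose translation rises when eIF2 is phosphorylated, was at 466.1, 455.4, 495.9 and 485.8 CPM against 409.2, 434.4, 487.5 and 491.5 CPM. The groups overlapped, and the log2 fold change was 0.06 (SE 0.0931, edgeR adjusted p = 0.914). Over the 15 genes of this response and its kinases, 7 values were negative and 8 positive. The hypusine enzymes Dhps and Dohh were at -0.03 and -0.07.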

How the data were processed

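The deposited table holds unnormalized read counts for each gene symbol in 8 libraries, 4 a group. The study's methods describe MACE-seq on an Illumina sequencer, whereas the labels name a small RNA kit. The submitters' processing notes name Bowtie, edgeR and GRCm38 without their roles, and the counting tool is not given in the sources used here. The 12700 genes that reached 2 CPM in 4 or more libraries were scaled by TMM and compared with the quasi-likelihood test of edgeR 4.0.16 (R 4.3.3, group as the only term, two-sided, Benjamini-Hochberg adjustment over all genes tested, threshold 0.05). The standard error was the log2 fold change divided by the square root of F. The biological coefficient of variation was 14.5%. Alternatives included DESeq2 1.42.0 and limma 3.58.1. Positions came from GENCODE M21, in which all 49 members matched 1 gene, and copies from blastn. The steps were tested on simulated data. Every member could be named; values per library are given for those with an unadjusted p under 0.05, near Alox15, or among 9 factors and the pair Eif2s3x and Eif2s3y chosen by name. Members, partner and marker lists were chosen with earlier results of these data known. The addition of pseudogene counts and the sums by role were chosen after seeing the data.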

Additional observations from a re-analysis of the deposited data

Results flagged for a closer look

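In 5 of 98 groups of 4 libraries (49 members, 2 groups), 1 library lay far from the other 3 of its group, by the ratio of its gap to the group's range (Dixon's 95% criterion). Chance gives about 1 such group in 20. Eif4g1 was at 246.3 CPM in WT replicate 3 and, in the other group, at 189.9 CPM in Alox15-/- replicate 4, each the highest of its group. Eif4g2 was at 966.0 CPM in WT replicate 1, above the rest of WT. A pair of eIF3 genes had a low library. Eif3a was at 177.6 CPM in Alox15-/- replicate 3, where the next value was 210.0 CPM, and Eif3e at 275.2 CPM in Alox15-/- replicate 2, where the next was 296.2 CPM.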

How the results depend on the processing

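The count of initiation factors called was 0 under all 21 alternatives (the one without Eif2s3y repeats the reported fit, since that gene was under the filter), and that of partners 0 under the 18 run for them, while the calls among all genes ran from 86 to 388. The members' median log2 fold change stayed between -0.083 and -0.033, and between -0.077 and -0.042 relative to the median of all genes. The number of members with an unadjusted p under 0.05 was 6 without Alox15-/- replicate 3, and 1 without Alox15-/- replicate 4, WT replicate 1 or WT replicate 4. Of 266 values of the 14 members given in full, 23 changed sign, none of them past the threshold. With upper quartile scaling Eif1 was at 0.007, Eif5 at 0.014 and Eif6 at 0.011. Eif4a1 was at -0.016 without the filter on low counts and at -0.017 with its pseudogene copy added. With 1 library left out at a time, Eif1 ran from -0.087 to 0.066, Eif4a1 from -0.029 to 0.046, Eif4e from -0.104 to 0.012, Eif5 from -0.051 to 0.031, Eif5b from -0.16 to 0.22 and Eif6 from -0.143 to 0.095. Eif2s1 ran from -0.094 to -0.015, Eif5a from -0.103 to -0.01 and Eif4ebp1 from 0.058 to 0.182, without a change of sign, and the cause was not tested. Replicate numbers 1 to 4 recur in both groups. Deviations of same-numbered libraries correlated at 0.069, 0.165, -0.178 and -0.018, and those of other pairs across the groups at -0.213 to 0.149. No pairing was apparent, but such correlations cannot settle whether same-numbered libraries were handled together. With the replicate block the members' median was -0.061, none was called, and 146 of all genes were called against 158. With 2 reads each over the 8 libraries, Eif2s3y and Eif2c5 could not be compared between the groups, and why they were so low was not tested.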
